A study of Arabidopsis thaliana with 8 samples.

Results

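The peaks described here were listed for overlapping stretches of a transcript in wild-type Arabidopsis thaliana and in the atalkbh10b-1 mutant. Both mutant enrichments used here were below both wild-type ones. A wild-type and a mutant peak of the same gene formed a shared pair when they overlapped by at least 1 base and each was the other's largest overlap. A pair was a member when the smaller of its 2 wild-type log2 enrichments exceeded the larger of its 2 mutant ones by at least 1. That difference is called the gap below. By this rule 577 of the 13876 shared pairs were members (4.16%), in 575 of 10607 genes. The members were chosen by these 4 log2 enrichments, so the levels and differences below are a description, with no test. The same rule with the genotypes exchanged held for 649 pairs (4.68%), called higher pairs here. The 2 peaks of a member shared 8 to 258 bases (median 139), and in 538 members at least 50% of the shorter peak. Some genes named below had short overlaps, among them SCAMP3 (40 bases), LNK2 (51), EIF2 ALPHA (53), ARPC1B (56), ASHH3 (60) and PHYA (66). In such pairs the genotypes are compared partly over different bases.

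The samples were seedlings aged 14 days of the ecotype Columbia-0, either wild type or homozygous for atalkbh10b-1, a lesion in the demethylase gene ALKBH10B. The labels name 1 mutant allele and no further treatment. For each genotype the labels describe 2 pull-down libraries, made from fragments of poly(A) RNA bound by an anti-m6A antibody, and 2 input libraries, 8 in all, as biological replicates. The deposited values were 1 peak list per genotype, each peak with a log2 enrichment per replicate; the wild-type list held 20521 peaks and the mutant list 20696. Each list also has a column headed as replicate 3, and the series' design text speaks of 3 biological replicates, but the sample labels used here describe 2 per genotype. That column matched none of them and was not analysed here, so membership, gaps and n = 2 refer to replicates 1 and 2. Depth is unknown, since the lists hold no counts. Of 27 photosynthesis genes listed as a check of green tissue, 26 had a shared pair. The shared pair in ALKBH10B (AT4G02940) was no member, with log2 enrichments of 1.37 and 1.00 in wild type and 1.61 and 3.44 in the mutant, and enrichment over input does not measure how much of that transcript was present.

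N6-methyladenosine (m6A) is the most common internal mark of messenger RNA. In plants a writer complex built around MTA and MTB deposits it, mostly near the stop codon and in the 3' untranslated region, proteins with a YTH domain bind it, and demethylases of the AlkB family such as ALKBH10B remove it. ALKBH10B is known for its part in the floral transition.

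Members had high enrichment in wild type and ordinary enrichment in the mutant. Their median log2 enrichment was 5.01 and 5.04 in wild-type replicates 1 and 2, against 2.50 and 2.62 over all shared pairs. In mutant replicates 1 and 2 it was 2.18 and 2.06, against 2.52 and 2.44 over all pairs. The median difference of the genotype means was -3.19 among members and -0.02 among all pairs. The higher pairs showed the opposite pattern, with median means of 2.36 (wild type) and 6.59 (mutant) and a median difference of 3.83. Under the choosing rule the share of members depended on the wild-type level, from 118 of 6006 pairs (1.96%) with a wild-type mean of 2 to 4 to 75 of 180 pairs (41.7%) with a mean of 8 or more.

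**Figure D1:**
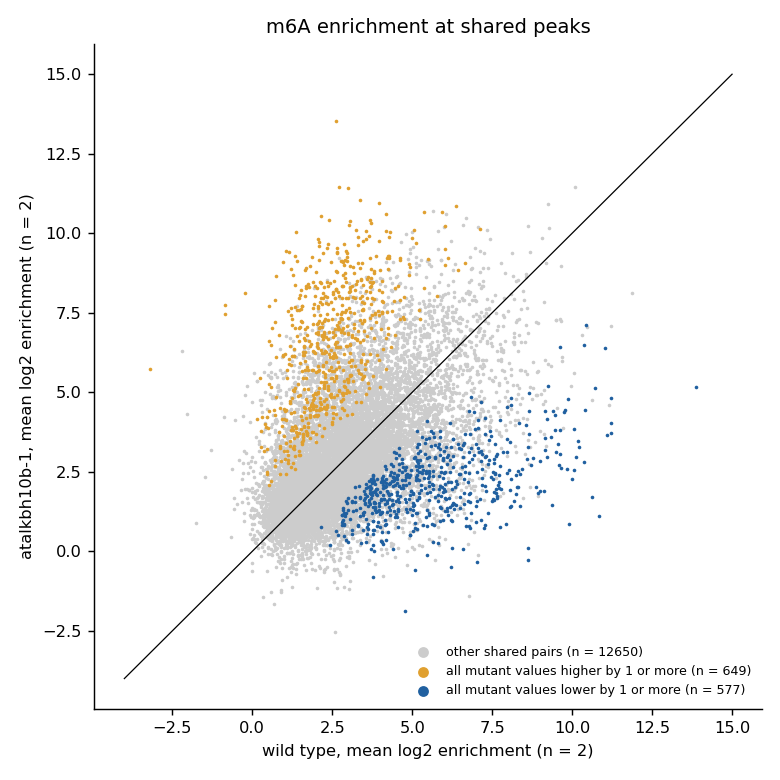
Mean log2 enrichment of each shared pair in wild type (horizontal axis) and in atalkbh10b-1 (vertical axis), n = 2 replicates per genotype, with the line of equal values. The 577 members lie below the line at wild-type means from 2.15 to 13.87, and the 649 higher pairs lie above it.

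Every member was still listed as a peak in the mutant, because a peak had to be in the mutant list to be paired. The larger mutant value was at least 1.03 in all 577 members, and both mutant values were under 1 in 20 of the 13876 shared pairs. Both mutant values reached 1 or more in 380 members, and in 13 members both reached 4 or more. In 79 members 1 mutant value was below 0. How enrichment was computed and scaled is not given, so 0 need not be the input level. A mutant value was exactly 0.00 in 5 members, for which the lists do not say whether it was measured. EIF2 ALPHA (AT5G05470), a translation initiation factor gene, had the lowest mutant mean among members with a gene symbol, from values of 1.68 and -3.31, against 3.22 and 4.33 in wild type. ATUBC2-1 (AT1G45050), which encodes a ubiquitin-conjugating enzyme, had 4.32 and 3.29 against -2.20 and 2.23, and HEXO3 (AT1G65590), a hexosaminidase that trims sugar chains of glycoproteins, had 3.38 and 4.06 against -2.02 and 2.13. In these 3 genes 1 mutant replicate was below 0 and the other above it.

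The gap ranged from 1.00 to 7.72, with a median of 1.64. It reached 2 in 193 members, 3 in 79, 4 in 38 and 5 in 18. With the genotypes exchanged, the gap of the 649 higher pairs reached 2 in 288, 3 in 156, 4 in 75 and 5 in 31. The gap of the members exceeded the larger of the replicate differences in 289 members, and was at least 2 times that difference in 142. Replicates of a member differed by a median of 1.07 (wild type) and 1.04 (mutant), against 1.26 and 1.60 over all pairs, and the rule itself favours close replicates. Just inside the threshold lay HBT (AT2G20000, a cell-cycle gene), with 2.40 and 2.48 in wild type and -1.01 and 1.40 in the mutant, followed by ATG3 and AT1G27000. Just outside lay AT3G02890, with 8.90 and 4.03 against 3.04 and 1.27, followed by AT1G01230 and ENODL14.

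Across the whole table limma's moderated test called 0 of the 13876 pairs lower in the mutant (0%) and 0 higher at a Benjamini-Hochberg adjusted p under 0.05. At an unadjusted p under 0.05 it placed 205 pairs lower (1.48%), all of them members, and 286 higher (2.06%). The smallest adjusted p of any pair was 1. With 2 replicates per genotype, 0 calls do not show that the genotypes were alike. The rule used the same contrast, so nothing is read from the members' share. Leaving out 1 of the 4 values loosens the rule, so all 577 members stay and the count can only rise. Applied to the other 3, the rule kept 1974 pairs without wild-type replicate 1 and 1785 without wild-type replicate 2. It kept 2517 without mutant replicate 1 and 1939 without mutant replicate 2.

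The 12 widest gaps among genes with a symbol included genes of chromatin and transcription, which were not tested as a group. ATX1 (AT2G31650), a trithorax-type histone methyltransferase, had a peak at bases 3143 to 3330 of its gene model in wild type, with log2 enrichments of 9.03 and 10.25, and 3.66 and 1.56 in the mutant. ASHH3 (AT2G44150), another SET-domain methyltransferase, had 8.93 and 7.55 in wild type and 0.95 and 2.66 in the mutant. In both genes each mutant value lay more than 4 log2 units below each wild-type value. SR1 (AT2G22300), the calmodulin-binding transcription activator also named CAMTA3, a repressor of immune responses, had 10.70 and 11.76 against 5.58 and 4.09. Its mutant values were thus still above the mutant medians over all shared pairs, 2.52 and 2.44. GATA5 (AT5G66320), a GATA-type transcription factor, had 6.92 and 7.08 against 2.2 and 0.67. BIM3 (AT5G38860), a partner of the brassinosteroid regulator BES1, had 8.34 and 11.81 against 3.84 and 3.85, so that its wild-type replicates were far apart and its mutant ones nearly equal.

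ELF9 (AT5G16260), an RNA-binding protein whose loss causes early flowering, combined a wide gap with close replicates. Its peak had 7.44 and 7.77 in wild type (mean 7.60 ± 0.23, SD, n = 2) and 2.43 and 2.48 in the mutant (mean 2.46 ± 0.04). NRPB7 (AT5G59180), a subunit of RNA polymerase II, and ATM1 (AT3G19960), a myosin, were the 2 genes with 2 member peaks each. In NRPB7 the first peak had 6.92 and 8.30 against 3.14 and 2.86. Its second peak had 10.19 and 5.13 against 0.45 and 2.93. The 2 peaks of ATM1 adjoined each other, at bases 3654 to 3827 and 3828 to 4007 in wild type, so they are not independent peaks. The upstream one had 3.23 and 4.44 against 1.41 and 1.31, and the downstream one 6.35 and 8.81 against 1.73 and 3.14.

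Members named for a wide gap or for close replicates also included genes of membrane traffic and the cytoskeleton. VPS20.1 (AT5G63880), a subunit of the ESCRT machinery that sorts membrane proteins in endosomes, had the widest gap of any gene with a symbol, with 9.29 and 10.42 in wild type and 1.68 and 3.52 in the mutant. SCAMP3 (AT2G20840), a secretory carrier membrane protein, had 4.64 and 4.95 against 1.65 and 1.46. BTI2 (AT4G11220), a reticulon-like protein of the endoplasmic reticulum, had 4.02 and 4.01 against 1.59 and 1.69, the closest replicates of any member with a symbol and a gap of at least 2. The kinesin gene ATK2 (AT4G27180) had 6.31 and 5.98 against 1.62 and 1.74. In these last 3 genes the 2 replicates of a genotype differed by at most 0.33, less than the gap in each. By contrast ARPC1B (AT2G31300), a component of the complex that branches actin filaments, had 10.13 and 7.14 against 3.24 and -3.76, so that its mutant replicates lay further apart than the gap of 3.90.

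Enzyme and transporter genes were also among the members named by the rule. LPD1 (AT3G16950), a plastid lipoamide dehydrogenase, had 8.55 and 8.33 in wild type and 2.93 and 2.26 in the mutant, at a peak near the start of its model (bases 136 to 289). LUP2 (AT1G78960), a triterpene synthase, had the highest wild-type values of any member, 13.22 and 14.52, and mutant values of 8.19 and 2.12. NIT2 (AT3G44300), a nitrilase, had 9.49 and 7.24 against 1.90 and 0.98, but its mutant peak shared only 25 bases with the wild-type peak. LUP2 and NIT2 have close relatives in the genome, so reads may be divided between copies and their values are uncertain. The sterol pathway gene 3BETAHSD/D2 (AT2G26260) had 7.42 and 11.76 against 2.85 and 2.59. Of the transporters, CLT2 (AT4G24460) of the plastid envelope had 6.76 and 6.38 against 2.68 and 2.62, and PHT2;1 (AT3G26570), the chloroplast phosphate transporter, had 3.48 and 3.52 against 1.07 and 1.44. The replicates of both differed by at most 0.38 in each genotype.

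HSP90.1 (AT5G52640), the heat-inducible cytosolic chaperone, had 8.88 and 8.55 in wild type (mean 8.71 ± 0.24) and 2.87 and 2.55 in the mutant (mean 2.71 ± 0.23). Its replicates differed by 0.33 and 0.32, against a gap of 5.67. ATB' GAMMA (AT4G15415), a regulatory subunit of protein phosphatase 2A, had 5.08 and 5.41 against 2.81 and 2.94. CRLK2 (AT5G15730), a calcium-regulated receptor-like kinase, had 11.18 and 11.26 against 7.95 and -0.51, so its gap of 3.23 rested on 1 mutant replicate that was itself high. WNK6 (AT3G18750), a kinase of the WNK family, had 6.46 and 7.04 against 3.49 and 0.87. Genes without a symbol reached further still. AT5G67630 had 9.67 and 11.58 against 1.48 and 1.95, the widest gap of all members, followed by AT4G13970 with 12.24 and 9.44 against 0.01 and 2.2. In AT2G35130 the values were 9.92 and 10.85 against 2.67 and 2.93. The files and the annotation table give these 3 genes no name. High wild-type values were also found in AT2G34357 (10.79 and 11.62 against 3.85 and 4.20) and AT3G07860 (9.83 and 12.35 against 3.60 and 3.73). AT4G21880, with 11.60 and 10.47 against 3.36 and 9.41, passed the rule by a gap of 1.05 because its mutant replicate 2 was nearly as high as wild type.

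**Figure D2:**
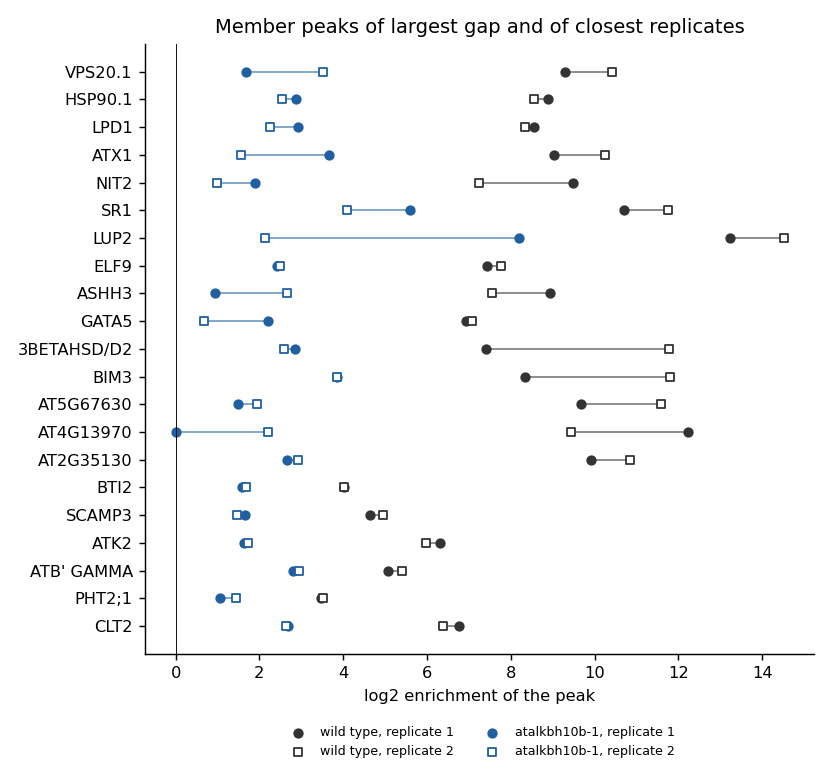
Log2 enrichment of named member peaks in each replicate (circles, replicate 1; squares, replicate 2; black, wild type; blue, atalkbh10b-1), with a line joining the replicates of a genotype. The mutant values lie to the left of the wild-type values in every row, as the rule requires, and the length of the lines shows how far replicates differed, which was 0.32 for the mutant replicates of HSP90.1 and 6.06 for those of LUP2.

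Members occurred in the gene lists at close to the share over all pairs. Of 292 shared pairs in 10 gene lists, 10 were members (3.42%, against 4.16% of all pairs) and 13 were higher pairs. Without 1 replicate in turn, which loosens the rule, the lists held more members among the 292 pairs. They held 40 (wild-type replicate 1), 25 (wild-type replicate 2), 47 (mutant replicate 1) and 31 (mutant replicate 2). Among all 13876 pairs the count rose likewise, from 577 to 1974, 1785, 2517 and 1939 in the same order. The genotype means differed by at least 1.5-fold downward in 85 of the 292 pairs and upward in 92, against 32.1% and 32.4% of all shared pairs. Within the m6A machinery list, 1 of 25 pairs was a member and 0 were higher pairs. It lay in VIR (AT3G05680), a component of the writer complex, with 7.03 and 3.89 in wild type and 2.59 and 1.07 in the mutant. Among 43 flowering-time pairs 2 were members and 5 were higher pairs. VRN1 (AT3G18990), needed for vernalization, had 4.35 and 3.36 against 0.99 and 1.80. REF6 (AT3G48430), a histone demethylase that promotes flowering, had 4.69 and 3.92 against 2.29 and 2.48. In these 3 genes the gap lay between 1.30 and 1.56, in the lower part of the members' range.

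Both photoreceptor genes among the members had a mutant value slightly below 0. CRY2 (AT1G04400), a blue-light receptor, had 5.36 and 4.67 in wild type and -0.12 and 1.39 in the mutant. PHYA (AT1G09570), the far-red receptor, had 3.98 and 6.32 against 1.49 and -0.07. They were the 2 members among 35 light-signalling pairs (5.71%, against 4.16% of all pairs), beside 1 higher pair. LNK2 (AT3G54500) was the member among 16 clock pairs (6.25%, beside 1 higher pair), with 8.18 and 9.09 against 6.01 and 3.93. The ethylene list held 2 members among 17 pairs (11.8%) and 0 higher pairs. These counts are too small to single out a list. EIN2 (AT5G03280), the central membrane protein of the ethylene pathway, had 6.60 and 5.50 against 2.90 and 3.66. EIL1 (AT2G27050), a transcription factor that acts downstream of EIN2, had 3.63 and 2.44 against 1.09 and 0.97. The gap was 1.84 in EIN2 and 1.35 in EIL1.

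Of the 50 pairs in the small RNA and mRNA decay list 2 were members (4.00%, against 4.16% of all pairs) and 3 were higher pairs. The members lay in UPF1 (AT5G47010) and UPF2 (AT2G39260), which act in nonsense-mediated decay, the removal of transcripts with early stop codons. UPF1, the helicase of the pathway, had 5.11 and 5.32 in wild type and 3.16 and 1.34 in the mutant. UPF2, its partner, had 6.83 and 4.89 against 3.62 and 3.54. No pair was a member in the auxin list (43 pairs), the photosynthesis list (33 pairs), the abscisic acid list (16 pairs) or the reference transcripts (14 pairs). The list medians of the difference ran from -0.12 for auxin to 0.51 for flowering time, beside -0.02 over all pairs.

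**Figure D3:**
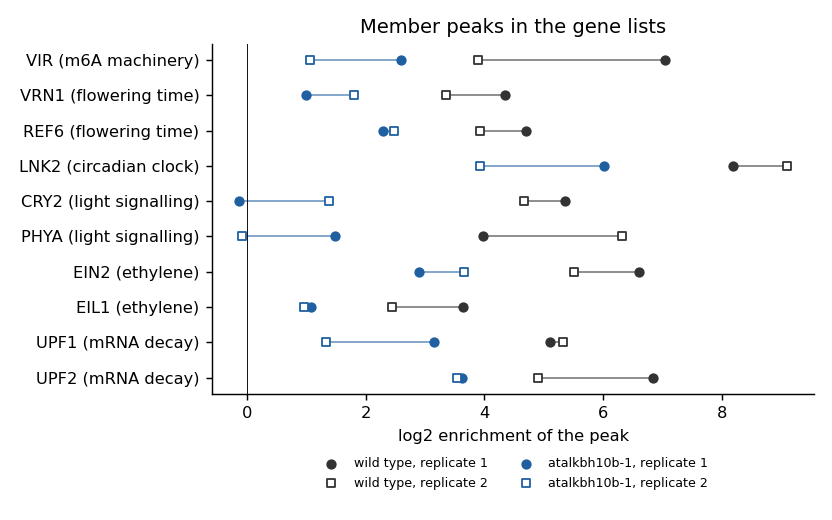
Log2 enrichment in each replicate of the 10 member peaks that lie in the gene lists, with the list in parentheses (circles, replicate 1; squares, replicate 2; black, wild type; blue, atalkbh10b-1). CRY2 and PHYA each have 1 mutant value below 0, and LNK2 has the highest values in both genotypes.

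Gene names were also sorted into 15 broad classes by words in the annotation table, which names few products, so most members fell in none. Vesicle traffic had 8 members among 102 pairs (7.84%, against 4.16% of all pairs) beside 6 higher pairs. They were the small GTPase genes RABA5b, RABA5a, RAB8C and RAB1A, the membrane fusion genes VTI1B, SYP121 and SYP52, and EXO70B1 of the exocyst, which tethers vesicles at the plasma membrane. EXO70B1 (AT5G58430) had the highest values of these, 10.24 and 8.25 against 4.64 and 5.74, and SYP121 (AT3G11820), a syntaxin known from defence at the cell surface, had 3.68 and 3.56 against -0.41 and 2.16, although its 2 peaks shared only 10 bases. Several Rab genes have close relatives, so their values are uncertain. Kinases had 11 members among 392 pairs (2.81%) and 21 higher pairs, and transporters and channels had 8 among 213 (3.76%) and 10 higher pairs. Ribosomal protein genes had 3 among 56 (5.36%) and 0 higher pairs, and cytochrome P450 genes 3 among 59 (5.08%) and 1 higher pair. Transcription factors had 4 among 149 (2.68%) and 9 higher pairs. These counts are small, and no class is singled out by them.

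Member peaks were nearly always the last listed peak of their gene, counted from the start of the gene model. In wild type 541 of the 577 were the last (93.8%, exact binomial 95% interval 91.5 to 95.6, counting error only), against 73.0% of all shared pairs and 82.6% of the higher pairs. Where the gene had 2 or more wild-type peaks, 230 of 266 members were the last (86.5%), against 53.2% of all such pairs and 67.4% of the higher ones. Most peaks of high wild-type enrichment were last: with a wild-type mean of 4 or more, 437 of 459 members (95.2%, interval 92.8 to 97.0) and 93.3% of the 2674 other pairs (interval 92.3 to 94.2) were. These intervals overlap, and the difference was not tested. Their first base lay at a median of 1476 bases in wild type, against 1236 over all pairs.

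Seen from the gene, few upstream peaks became members. Among first peaks of genes with 2 or more wild-type peaks, 22 of 2594 pairs were members (0.848%) and 85 were higher pairs (3.28%). Among last peaks of such genes 230 of 4262 were members (5.40%) and 234 were higher pairs (5.49%). The median difference, mutant minus wild type, was 0.16 for the first peaks and -0.12 for the last ones. With each replicate centred on its median, which moved the median of all pairs from -0.02 to 0.06, these became 0.25 and -0.04. The first peaks also had lower enrichment in wild type, with a median mean of 1.65 against 3.18 for the last ones, and a pair with a wild-type mean under 2 was never a member. Within ranges of the wild-type mean the shares were closer, and in each range the share among last peaks was the higher one, a difference that was not tested. Among pairs with a mean of 2 to 4, 2.13% of last peaks and 1.24% of the others were members. Among pairs with a mean of 4 to 6, 10.7% of last peaks and 8.00% of the 150 other peaks were members. Among those with a mean of 6 to 8 the shares were 21.7% and 17.1%, and with a mean of 8 or more 42.4% of last peaks and 3 of the 10 others were members. The median difference went the other way, more negative in the other peaks than in last peaks in each range. It was -0.34 against -0.03 at a mean of 2 to 4, and -1.81 against -0.87 at 4 to 6. At 6 to 8 it was -3.20 against -2.43, and at 8 or more -5.64 against -4.23. These medians were not tested either.

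The downstream border of the mutant peak tended to lie upstream of the wild-type border in members. The mutant peak ended before the wild-type peak in 397 of 577 members (68.8%, interval 64.8 to 72.6) and after it in 137 (23.7%). Over all pairs it ended before in 55.4%, in the higher pairs in 45.8%, and in the non-members with a wild-type mean of 4 or more in 56.5%. Among members with such a mean it ended before in 68.2%. The median shift of the last base was -10 bases in members, -3 over all pairs and 0 in the higher pairs. The first base shifted by a median of -7 bases in members and -2 over all pairs. Both shifts are small beside the median width of 162 bases in wild type. With 1 list per genotype the borders have no replicates, so these intervals cover the counting of pairs and not the variation between seedlings.

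Mutant peaks of members were more often at the narrowest width the lists contain, 100 bases. In the mutant list 81 of 577 members had this width (14.0%, interval 11.3 to 17.1), against 8.97% of all pairs, 8.63% of the higher pairs and 7.82% of the non-members with a wild-type mean of 4 or more. In the wild-type list 18 members had it (3.12%), against 7.33% of all pairs and 11.7% of the higher pairs. Peaks of this width were thus more frequent on the side of the lower values in both directions. How the authors' caller set peak widths is not given in the sources used here, and the part of width in the result was not tested. Both borders coincided in 5 members (0.87%, against 1.49% of all pairs). Of those with a symbol, PGPS2 (AT3G55030), a phosphatidylglycerolphosphate synthase gene, had the widest gap. Its values were 4.39 and 4.58 against 3.08 and 0.09 over bases 1131 to 1230 in both lists. The peaks were staggered in 396 members (68.6%, against 66.7% of all pairs). In 124 (21.5%, against 18.3% of all pairs) the mutant peak lay inside the wild-type one.

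**Figure D4:**
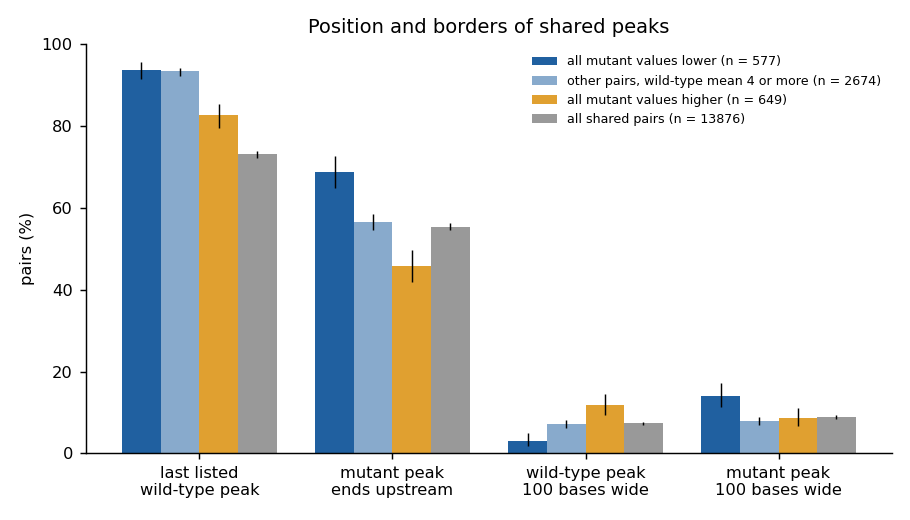
Share of pairs (%) that were the last listed wild-type peak of their gene, whose mutant peak ended upstream of the wild-type peak, and whose wild-type or mutant peak was 100 bases wide, in 4 sets of shared pairs, with exact binomial 95% intervals (counting error only). The 577 members stand at 93.8% for the first measure and 68.8% for the second, and the non-members with a wild-type mean of 4 or more at 93.3% and 56.5%.

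The other peaks of the members' genes were not lower as a group. In 164 of the 575 genes there was another shared pair that was no member, 214 in all. The median difference at these was 0.10 on the log2 scale, with 93 lower (43.5%) and 121 higher in the mutant mean, against 50.8% lower over all pairs. Of the 214, 59 were higher by 1 or more in the mean and 36 lower by 1 or more. Their median means were 1.99 (wild type) and 2.16 (mutant), below that of all pairs in both genotypes. Over all shared pairs that were not the last wild-type peak of their gene, the median difference was 0.17. Over all pairs with a wild-type mean under 2 it was 0.36. The 0.10 is thus not above that of such pairs. Because pairs of a gene share their libraries and were left over once the members were removed, these values are a description.

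In 9 genes a member and a higher pair lay in the same transcript. These were 9 of the 214 other shared pairs of member genes, beside 4.68% higher pairs among all shared pairs. In 8 of the 9 genes the higher pair was the first listed wild-type peak and the member the last. Members in genes with 2 or more wild-type peaks were the last in 86.5%, so another peak of the gene mostly lay upstream. Whether the arrangement differs from this background was not tested. NF-YC9 (AT1G08970), a subunit of a transcription factor that binds promoters with a CCAAT box, had 0.99 and 1.34 in wild type and 9.25 and 9.59 in the mutant at bases 21 to 120, and 3.52 and 2.94 against 0.84 and 1.79 at bases 1307 to 1485. Its upstream peak had the closer replicates, while at the downstream one the mutant replicates differed by 0.94, against a gap of 1.15. ULP1D (AT1G60220), a SUMO protease, had 1.75 and 2.05 against 9.03 and 7.94 upstream, and 4.85 and 3.32 against 1.73 and 2.22 downstream. In these 2 genes the genotypes were further apart at the upstream peak. TFIIS (AT2G38560), a transcript elongation factor, had -1.41 and 2.89 against 10.02 and 7.33 upstream, and 4.40 and 3.79 against 2.08 and 2.29 downstream. AT3G14172 had 0.63 and 3.16 against 4.84 and 4.24 upstream, and 9.65 and 10.35 against 3.34 and 1.18 downstream, where it was further apart. XRI1, SCAMP3, AT3G45050 and AT5G13520 were arranged likewise. The exception was NAGS1 (AT2G22910), an enzyme of arginine synthesis, whose first peak was the member, with 5.54 and 9.01 against 2.82 and 3.11, and whose second peak had -1.38 and 4.07 against 7.86 and 10.71. In all 9 genes the opposite differences were measured in the same libraries.

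**Figure D5:**
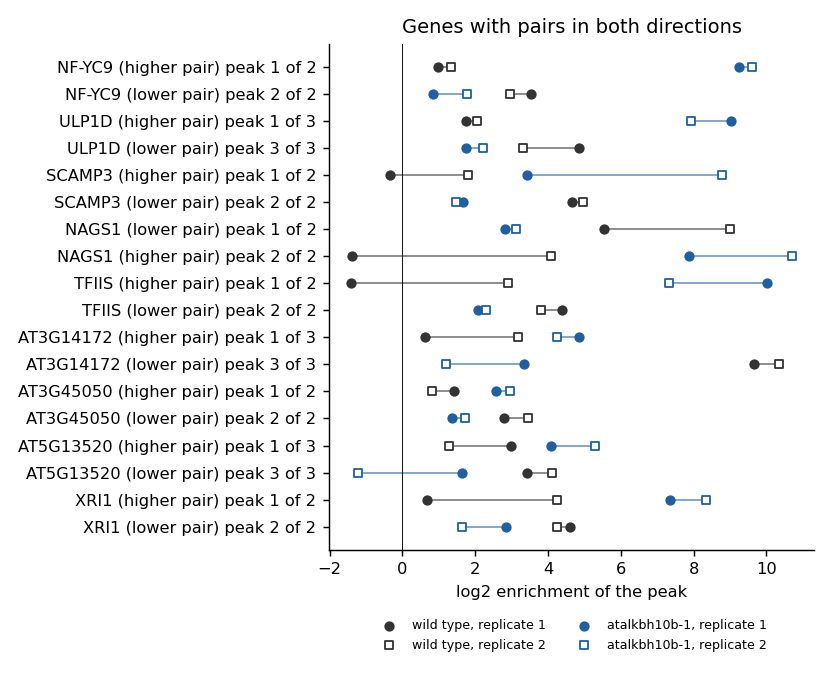
Log2 enrichment in each replicate at the higher pair and the member (lower pair) of the 9 genes that hold both, with the place of the peak among the listed wild-type peaks of the gene (circles, replicate 1; squares, replicate 2; black, wild type; blue, atalkbh10b-1). Genes are in order of their identifiers and the upstream peak comes first, which is the higher pair in all but NAGS1.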

How the data were processed

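The authors deposited 1 list of m6A peaks per genotype. Per the file headers, peaks are given by gene, start and end, with log2 enrichment values of single replicates. The submitters' processing notes name TopHat2 2.0.14, edgeR without a version, and the genome build TAIR10. How peaks were called, how enrichment was computed and whether libraries were scaled is not given in the sources used here. Positions are bases along each gene model as the authors counted them, and whether introns count is not stated. The column of replicate 3 in each list, 2 columns in all, matches no sample and was not used.

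The log2 values were used as deposited, with no pseudocount. Peaks were paired and members chosen as the report states. Genotypes were compared over all shared pairs with limma 3.58.1 in R 4.3.3 (no replicate block, Benjamini-Hochberg adjustment, threshold 0.05), tested on simulated data. The labels call the replicates biological and say nothing more, so p-values measure the spread between these libraries. Shares carry exact binomial 95% intervals. Depth is unknown, so no value has an interval that needs it.

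The members, the 10 gene lists (240 genes), the 15 name classes and the rule for named genes were chosen with earlier results of these data known. After first matches were seen, the search words of some classes were corrected and 1 class was renamed. The rule named members by gap, closeness of replicates, wild-type level, list, class, border pattern and nearness to the threshold, and genes with several members or with pairs in both directions. TFIIS, XRI1, AT3G45050, AT5G13520, EXO70B1, SYP121 and the other vesicle traffic genes were added after their values were seen. An annotation table (assembly TAIR10.1) supplied symbols; it held the genes of 575 of the 577 member pairs, 276 of them with a symbol; 14 list genes without one there are named from general knowledge. Tables, intervals and plots were made in Python 3.11.15 with pandas 2.3.3, scipy 1.17.1, matplotlib 3.10.9 and numpy 2.4.6.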

Additional observations from a re-analysis of the deposited data

How the results depend on the processing

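The number of members followed the gap required, with 1059 at a gap of 0.5 and 193 at a gap of 2. It was 374 in genes that overlap no other gene and 5 where both borders coincided. Applied to 3 of the 4 values, the rule is looser and kept 1785 to 2517 pairs, which included all 577. Centring each replicate left 523, of which 518 were among the 577. The median difference of the members was -4.61 at a gap of 2 and -3.22 to -2.39 under the other alternatives. With 1 replicate left out, the share whose mutant peak ended upstream was 58.9% to 63.1%, and the share that was the last peak 77.4% to 85.2%. The gene lists then held 25 to 47 members, and 3 at a gap of 2. The median difference at the other pairs of member genes lay between -0.01 and 0.56. Limma called 0 pairs under all 8 alternatives. With a replicate block it also called 0, with 234 pairs lower and 334 higher at an unadjusted p under 0.05. Replicate numbers were not seen to pair the libraries, since the correlation of their deviations was 0.00678. The alternative of another pseudocount was not run, as the values are on a log scale.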

Other observations

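Members lay on all 5 nuclear chromosomes, at shares close to those of all shared pairs. Chromosome 1 held 145 members (25.1%, against 26.1% of all pairs) and chromosome 2 held 82 (14.2%, against 14.9%). Chromosome 3 held 135 (23.4%, against 19.98%), a difference that was not tested. Chromosome 4 held 78 (13.5%, against 15.5%) and chromosome 5 held 137 (23.7%, against 23.3%). None lay on the organelle genomes, which held 30 of the 13876 pairs. A protein-coding gene held 574 of the 575 matched members, and the other lay in the long non-coding RNA gene AT3G56408. The share of protein-coding genes over all shared pairs was not counted, so nothing is read from this.

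Genes that overlap another gene held 201 members (34.8%), and the share of members among their pairs, 4.26%, was close to the 4.13% of genes that overlap no other. Member genes with a place in the annotation table overlapped each other in 3 cases. AT3G56408 had 6.997 and 9.13 in wild type and 1.10 and 2.78 in the mutant, and AT3G56410, with which it overlaps, had 6.76 and 8.30 against 0.84 and 2.47. The wild-type peaks of both are equally wide, and whether the same reads were counted in both genes is not known. The other cases were CBL1 with AT4G17616 and SKL1 with AT3G26890.

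In 193 of the 575 member genes (33.6%) the mutant list held a peak with no wild-type partner, against 29.4% of all genes with a shared pair. For wild-type peaks with no mutant partner the shares were 25.4% and 25.9%. Of the 280 such mutant peaks in member genes 262 began upstream of the member, as did 180 of the 196 such wild-type peaks; 541 of the 577 members were themselves the last listed wild-type peak.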
